A study of Homo sapiens with 12 samples.

Results

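The genes described here are 43 that encode the DNA replication machinery of human cells. They are the listed genes of origin licensing, the replicative helicase, the polymerases, the sliding clamp and its loader, single-strand binding, flap removal and ligation, nucleotide supply, chromatin assembly and entry into S phase. All 43 were found among the 19774 genes of the array's annotation, each read with the probe set of highest mean over the 12 arrays. The rule names them by function.

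The study put microRNAs of the miR-200 family back into 3 established cell lines, HUTU-80, MDST8 and NCI-H716, which are labelled as colorectal cancer lines with methylated miR-200 loci. Total RNA was measured on 12 Affymetrix U133 Plus arrays. Lentivirus carried either the cluster of miR-200c and miR-141 (miR200c141) or the cluster of miR-200b, miR-200a and miR-429 (miR200ba429), transduced cells were sorted for green fluorescence at 48 hours, and RNA was taken at 7 days. Cells with both clusters were a share of the miR200ba429 cells that met the miR200c141 virus 24 hours after the sort, so that they had been transduced a second time.

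Both clusters were measured on 1 array of MDST8 and 1 of NCI-H716. The miR200c141 cluster was measured on 1 array of each of these lines and on 2 of HUTU-80, whose titles end in 1:3 and 1:5. The miR200ba429 cluster and the control were each measured on 1 array of every line. The sources used here state neither what the titles' ratios are nor how the control cells were treated, and the further line SW620 that the protocol names was not analysed here. The labels do not say that any arrays came from separate cultures, so the p-values measure only the spread between these samples.

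Before a cell copies its DNA, the origin recognition complex, CDC6 and CDT1 load the ring of MCM2 to MCM7 onto chromatin. At the start of S phase CDC45 and the GINS proteins join that ring to make the active helicase, and the polymerases, the PCNA clamp and the clamp loader RFC follow. Many of these genes are transcribed as cells pass from G1 into S phase, under E2F transcription factors, and fall silent in cells that leave the cycle. In a bulk sample, fewer replicating cells and less RNA per cell cannot be told apart.

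The mature microRNAs printed below are the 5 that were looked up, and other strands of the clusters were not read. They are printed because the seed, bases 2 to 8 in capitals, sets which transcripts they pair with. Among them the 2 clusters carry the same 2 seeds. The sequences are those of RefSeq on GRCh38.p14, and the first pair is of the miR200c141 cluster on chromosome 12, the other 3 of the miR200ba429 cluster on chromosome 1.
hsa-miR-200c-3p: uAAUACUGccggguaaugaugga
hsa-miR-141-3p: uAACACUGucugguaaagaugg
hsa-miR-200b-3p: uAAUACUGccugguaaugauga
hsa-miR-200a-3p: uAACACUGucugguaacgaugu
hsa-miR-429: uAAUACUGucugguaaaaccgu
The seed AAUACUG is shared by miR-200c, miR-200b and miR-429, and the seed AACACUG by miR-141 and miR-200a. Among the printed strands each cluster therefore holds both seeds, and cells with both clusters received none of these seeds that either single cluster lacks. The seeds of other strands were not compared.

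The values are RMA intensities on the log2 scale, with array medians between 3.595 and 3.662. Over all genes, 2 arrays correlated at 0.978 or above within a line and at 0.885 or below between lines. The highest of 23 nonspecific control probe sets, 5.43, served as the background level. ZEB1, a transcription factor that the family is known to repress, differed from the line's control by −2.24 to −1.13 on 8 of the 9 arrays with a construct. The exception was the library labelled MDST8 with miR200ba429, where ZEB1 changed by −0.13. VAMP8, an epithelial vesicle protein, changed by 0.20 on that array, against 2.78 to 6.75 on the other 8. It was not tested whether that library is as labelled, so its values are given as those of the library so labelled, and results that rest on it are given with and without it. Cells with both clusters were a share of the miR200ba429 cells, so the same doubt reaches the MDST8 array with both clusters. On that array ZEB1 changed by −2.24 and VAMP8 by 6.75, against −1.45 and 5.35 in MDST8 with miR200c141. Whether its cells carried both clusters was not tested. Defining markers of blood cells and endothelium were below background on all 12 arrays.

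Markers of other cell types moved with the constructs. Of 10 intestinal epithelial markers, 2 were above background with both clusters in MDST8, against 1 in the control (KRT18), and 9 in NCI-H716, against 8 in the control, while HUTU-80 had 1 in its control (KRT8). Their summed log2 level was 44.7 in MDST8 and 90.4 in NCI-H716 with both clusters, against 42.0 and 71.9 in the controls. By line, 6 of the 10 were above the control in MDST8 with both clusters (50.7% of all genes), with a median change of 0.09. In NCI-H716 10 were above it (48.2% of all genes), with a median of 1.38. In the fit over the lines 9 of the 10 were positive, with a median of 1.03. KRT18, a keratin, rose by 1.48 ± 0.23 (limma adjusted p = 0.0066). Of 3 fibroblast markers, COL1A1 was above background with both clusters in both lines, at 11.78 in MDST8 and 7.57 in NCI-H716, against 11.31 and 3.19 in the controls. DCN, a matrix proteoglycan, read 3.04 with both clusters against 5.48 in the control in MDST8, and 3.31 against 3.36 in NCI-H716, and the third was below background on every array. The summed level of the 3 was 18.07 and 14.22 with both clusters, against 20.01 and 9.32 in the controls, and none passed. The part of these markers in the changes of replication genes was not tested.

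Of the 43 replication genes, 39 were above background on all 12 arrays, against 37.6% of all genes. The exceptions were ORC1, GINS4, CHAF1B and E2F1, and E2F1, the activating E2F factor that gives the family its name, was below background on every array. The control of HUTU-80 had the highest level of the 3 controls for 24 members, and the control of MDST8 had the lowest for 25.

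The first question was how these genes stood in the cells with both clusters. A second transduction is stated for these cells alone, so its part and that of the combined clusters cannot be told apart. Compared with the control of the same line, 41 of the 43 were lower in MDST8 and 41 in NCI-H716, and the same 40 were lower in both. The exceptions were RPA3 at 0.07 and ORC6 at 0.00 in MDST8, and ORC6 at 0.28 and GINS4 at 0.10 in NCI-H716. Over all genes, 30% were lower on both arrays, and 35.1% of the genes above background on every array. The median change of the 43 was −0.48 in MDST8 and −0.47 in NCI-H716, while that of all genes was 0.01 and −0.02. Many levels also lay below those with single clusters: 31 members had their lowest value of the line on both arrays with both clusters. This held for 13.8% of all genes and for 22.1% of the genes above background on every array.

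**Figure D1:**
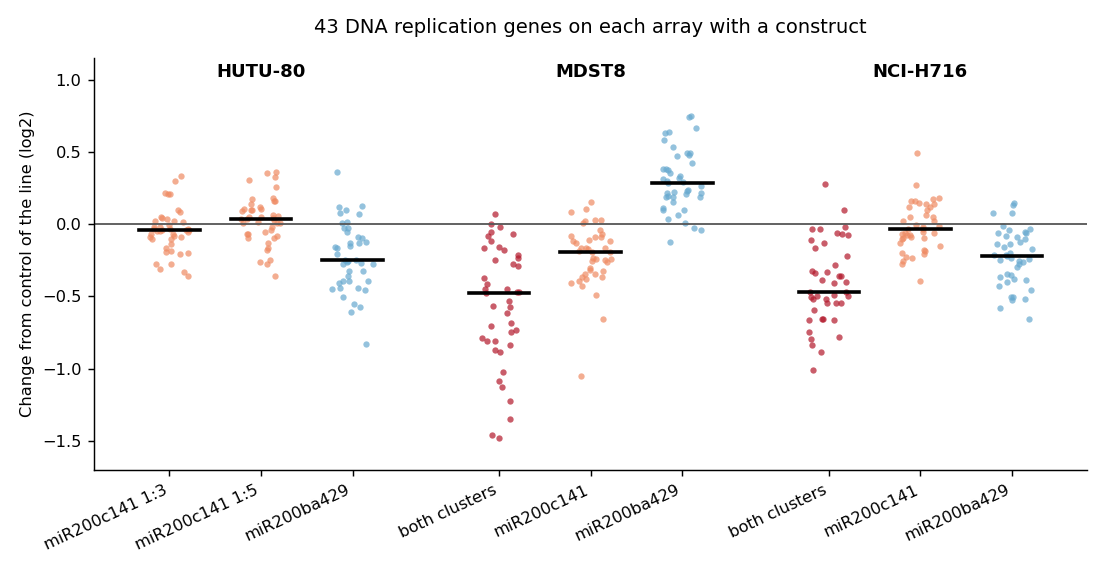
Change from the control of the same line (log2) of the 43 replication genes on each of the 9 arrays with a construct; points are genes and bars are medians. The arrays with both clusters have medians of −0.48 (MDST8) and −0.47 (NCI-H716), and the array of MDST8 with miR200ba429 is the one with a median clearly above 0, at 0.29.

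The plot of change by array shows that the downward shift with both clusters is shared by nearly the whole set. Changes below −1 were seen for 7 of the 43 members in MDST8 and for 1 in NCI-H716. Of all 19774 genes, 737 and 561 had such changes on the same arrays. The fitted changes come from a limma model over 11 samples with the cell line as a term, in which the pair of HUTU-80 arrays with miR200c141 counts as 1 sample. With both clusters against control, 5 of the 43 members fell and 0 rose at an adjusted p under 0.05. Over all 19774 genes 3.81% fell and 2.33% rose. In all, 42 of 43 fitted changes were negative, with a median of −0.49, and 24 members had an unadjusted p under 0.05, or 55.8%, against 22.0% of all genes. With the brightest probe set per gene, all 5 that fell were subunits of the MCM2 to MCM7 ring.

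MCM2, a subunit of that ring, had log2 levels of 6.85 in MDST8 and 8.76 in NCI-H716 with both clusters. With miR200c141 it stood at 7.79 and 9.47 in the same lines, with miR200ba429 at 8.21 and 9.07, and in the controls at 8.20 and 9.65. The array with both clusters was the lowest of its line each time, although the lines differ so much that the 2 groups overlap. In HUTU-80, MCM2 stood at 10.61 on both arrays with miR200c141, at 10.08 with miR200ba429 and at 10.65 in the control. The fitted change with both clusters against control was −1.12 ± 0.21 (SE, 2 against 3 samples, limma adjusted p = 0.0125). This is a 2.18-fold fall and the largest among the 43 with the probe sets used. The third control, of HUTU-80, has no array with both clusters beside it. It enters only through the model, which takes the change with each construct as equal in all lines. Without HUTU-80 MCM2 stood at −1.12 (limma adjusted p = 0.0541).

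MCM5, which forms the gate of the ring together with MCM2, stood at 7.96 in MDST8 and 7.83 in NCI-H716 with both clusters. With miR200c141 it was at 8.56 in both lines and with miR200ba429 at 9.18 and 8.38, while the controls were at 8.98 and 8.62. HUTU-80 had 9.22 and 9.28 with miR200c141, 8.96 with miR200ba429 and 9.41 in its control. Both arrays with both clusters thus lay below the other 10 arrays of the study. The fitted change was −0.95 ± 0.19 (SE, limma adjusted p = 0.0164), a 1.93-fold fall.

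MCM6, a further subunit, stood at 9.06 in MDST8 and 9.46 in NCI-H716 with both clusters. It was at 9.70 and 10.20 with miR200c141, at 10.08 and 9.79 with miR200ba429 and at 9.79 and 10.30 in the controls. HUTU-80 ran from 10.29 with miR200ba429, through 10.38 and 10.61 with miR200c141, to 10.57 in the control. Here too the arrays with both clusters were the lowest of all 12. The fitted change was −0.80 ± 0.16 (SE, limma adjusted p = 0.0178).

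MCM3, a neighbour of MCM5 in the ring, stood at 8.43 in MDST8 and 9.45 in NCI-H716 with both clusters, at 8.87 and 10.18 with miR200c141, at 9.46 and 9.93 with miR200ba429, and at 9.17 and 10.19 in the controls. In HUTU-80 it was at 10.12 and 10.21 with miR200c141, 9.88 with miR200ba429 and 10.28 in the control. It was lowest of the line with both clusters in MDST8 and in NCI-H716, and the level in NCI-H716 with both clusters overlaps the control of MDST8. Its fitted change was −0.79 ± 0.17 (SE, limma adjusted p = 0.0254).

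MCM7, also of the ring, stood at 9.38 in MDST8 and 9.41 in NCI-H716 with both clusters, at 9.82 and 9.90 with miR200c141, at 10.03 and 9.75 with miR200ba429, and at 9.99 and 9.90 in the controls. In HUTU-80 it was at 9.87 and 9.90 with miR200c141, 9.57 with miR200ba429 and 9.96 in the control. The arrays with both clusters were again the lowest of the 12, and the fitted change was −0.59 ± 0.12 (SE, limma adjusted p = 0.0197), a 1.51-fold fall.

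MCM4, the remaining subunit, did not pass the test. It stood at 9.14 in MDST8 and 8.84 in NCI-H716 with both clusters, against 9.71 and 8.91 in the controls. The difference was thus larger in MDST8, and the fitted change was −0.37 ± 0.18 (SE, limma adjusted p = 0.2637), with a 95% confidence interval from −0.77 to 0.03.

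**Figure D2:**
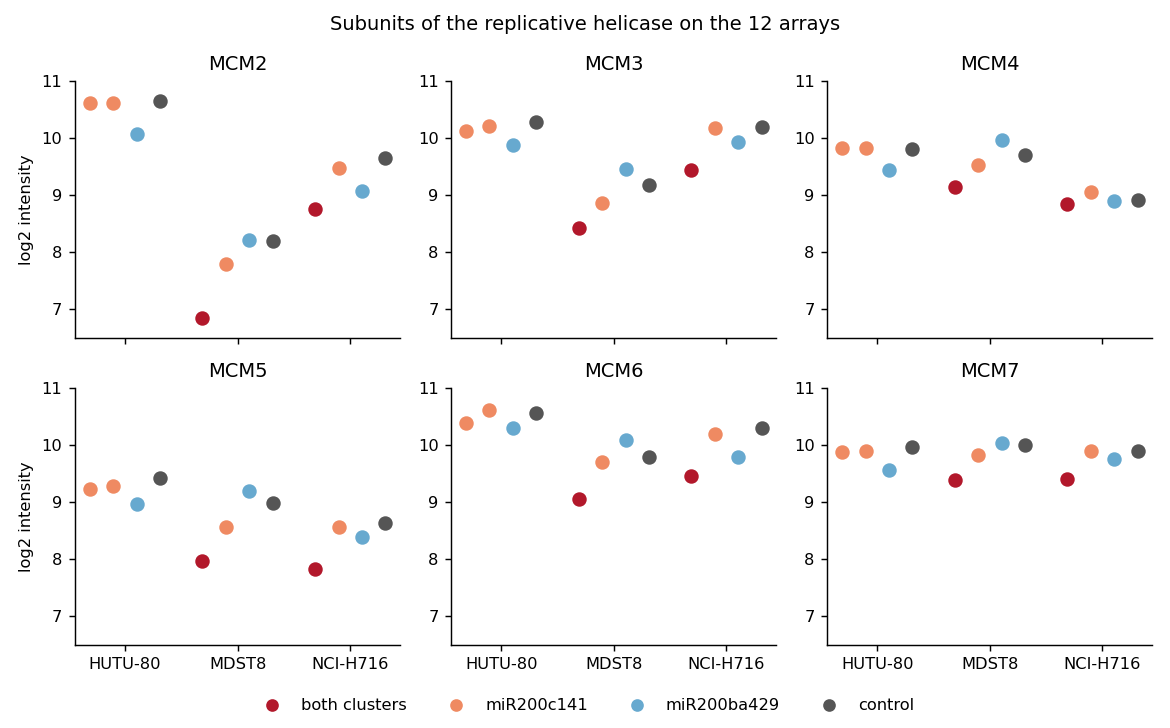
Level (log2 intensity) of the 6 subunits of the MCM2 to MCM7 ring on each of the 12 arrays, 1 point per array, coloured by construct within each line. In MDST8 and NCI-H716 the point for both clusters is the lowest of its line in every panel, from 6.85 for MCM2 in MDST8 to 9.46 for MCM6 in NCI-H716.

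A measure of RNA quality moved with the same arrays. Control probe sets read the 3′ and the 5′ end of ACTB, and the 3′ minus 5′ difference was 2.02 in MDST8 with both clusters, against 1.50 to 1.54 on the other arrays of that line. In NCI-H716 it was 2.63 with both clusters, against 2.33 to 2.40. For GAPDH it was 0.38 with both clusters in MDST8, against 0.28 to 0.32 on the other arrays of that line. In NCI-H716 the GAPDH difference was 0.35 with both clusters, against 0.27 to 0.325. It was thus also the highest of the line on both arrays, by smaller margins, and ran from 0.27 to 0.38 in HUTU-80. When the ACTB difference entered the model as a covariate, 0 of the 43 members and 0 of the 19774 genes passed. In that fit 40 members stayed negative with a median of −0.56. MCM2 stood at −0.91 (limma adjusted p = 0.689), MCM6 at −0.73, MCM3 at −1.07, MCM5 at −1.13 and MCM7 at −0.74. The difference was the highest of the line on both arrays with both clusters, so the fit cannot separate it well from the construct. No member passed either without HUTU-80, without the control of NCI-H716 or without the MDST8 array with both clusters. Leaving out the HUTU-80 control ended the calls of MCM3 and MCM7, and leaving out the NCI-H716 array with both clusters that of MCM3.

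The promoters were searched because the called members are known E2F targets. Of the 43, 37 had a promoter in the RefSeq table on GRCh38.p14, which gives 250 bases before to 50 after the annotated start. CCNE2, GINS4, MCM4, MCM5, RPA2 and RPA3 were not among them. These forms of the E2F motif were searched on both strands, TTTGGCGC, TTTCCCGC, TTTGCCGC and TTTCGCGC, and overlapping matches were counted apart. They were found in 19 of the 37 promoters (51.4%) and in 3.33% of 27305 promoters in the table. The letters CCAAT, read on both strands, were found in 22 of the 37 (59.5%) and in 35.7% of all. These shares describe letters in a window and do not show binding.

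The promoters of the 4 called MCM genes in the table are printed with the E2F letters in capitals, 5′ to 3′ on the gene's strand, since all 4 hold them. They lie at chr3:127598161-127598460 on the plus strand (MCM2), chr6:52284693-52284992 on the minus strand (MCM3), chr2:135876394-135876693 on the minus strand (MCM6) and chr7:100101348-100101647 on the minus strand (MCM7).
MCM2: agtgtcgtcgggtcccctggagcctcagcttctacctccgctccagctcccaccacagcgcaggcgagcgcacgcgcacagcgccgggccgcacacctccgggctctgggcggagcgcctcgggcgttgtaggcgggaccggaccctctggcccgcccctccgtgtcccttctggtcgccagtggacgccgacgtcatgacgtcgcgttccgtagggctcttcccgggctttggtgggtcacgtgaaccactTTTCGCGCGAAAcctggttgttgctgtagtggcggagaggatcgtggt
MCM3: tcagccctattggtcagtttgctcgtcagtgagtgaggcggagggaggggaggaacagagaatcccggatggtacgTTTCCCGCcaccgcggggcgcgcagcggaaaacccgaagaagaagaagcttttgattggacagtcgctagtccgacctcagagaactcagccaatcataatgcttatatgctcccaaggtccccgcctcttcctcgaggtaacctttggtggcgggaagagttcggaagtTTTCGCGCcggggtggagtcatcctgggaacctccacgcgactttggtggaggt
MCM6: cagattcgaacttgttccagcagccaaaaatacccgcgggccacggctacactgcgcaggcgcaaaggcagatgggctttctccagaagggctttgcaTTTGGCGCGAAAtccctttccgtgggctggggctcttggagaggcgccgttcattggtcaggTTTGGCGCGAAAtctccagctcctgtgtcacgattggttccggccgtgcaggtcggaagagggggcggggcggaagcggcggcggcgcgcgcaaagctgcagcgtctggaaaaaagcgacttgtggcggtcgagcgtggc
MCM7: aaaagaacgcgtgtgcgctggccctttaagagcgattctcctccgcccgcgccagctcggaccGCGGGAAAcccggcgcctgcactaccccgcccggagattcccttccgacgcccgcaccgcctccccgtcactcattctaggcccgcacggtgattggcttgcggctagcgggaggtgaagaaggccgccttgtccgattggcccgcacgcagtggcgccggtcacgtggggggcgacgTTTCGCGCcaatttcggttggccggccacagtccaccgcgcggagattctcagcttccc
MCM2 and MCM6 carry the letters on both strands as overlapping pairs, 1 pair in MCM2 just after the annotated start and 2 pairs in MCM6 before it. MCM3 and MCM7 each carry 1 match within 10 bases before the start and 1 farther upstream. Members with little change carry them too: PCNA, at −0.04 with both clusters, has 1 match 59 bases before its start. ORC6, the member with a positive fitted change, has none, and neither have ORC1, MCM10, CDC45 and POLD1, at −1.01, −0.94, −0.76 and −0.75.

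**Figure D3:**
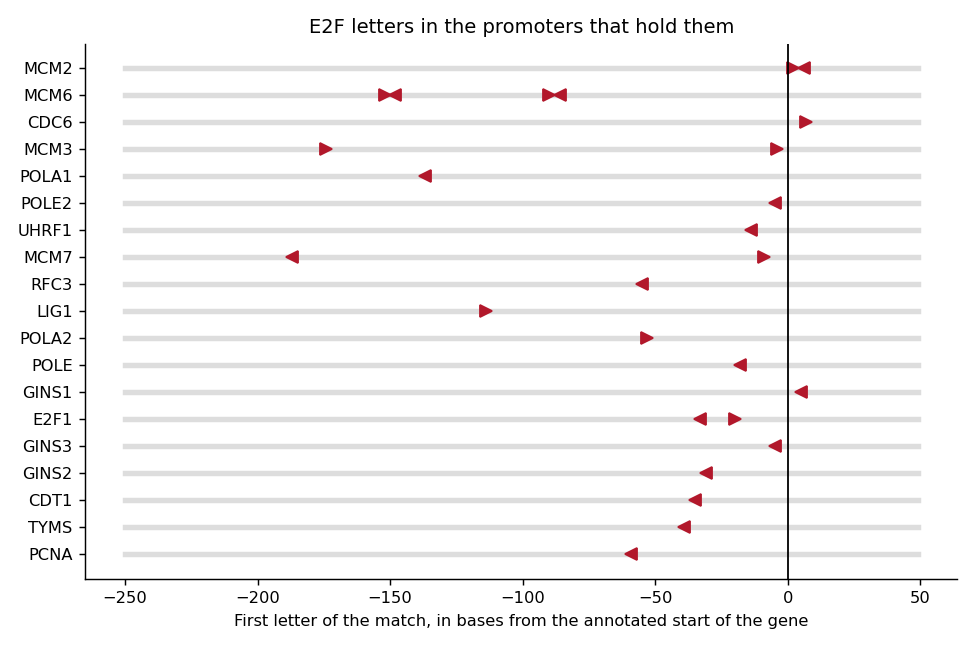
First letter of each E2F match, in bases from the annotated start of the gene, in the 19 member promoters that hold one; each row is a gene, ordered by fitted change with both clusters against control from MCM2 (−1.12) at the top to PCNA (−0.04) at the bottom. Triangles pointing right are matches on the gene's strand and those pointing left on the other strand.

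The genes that load the ring spanned a wide range, and none of the 4 passed. CDC6, the loader, stood at 6.43 in MDST8 and 8.03 in NCI-H716 with both clusters, against 7.56 and 8.58 in the controls, with a fitted change of −0.80 ± 0.22 (limma adjusted p = 0.062). ORC1, the largest subunit of the origin recognition complex, had −1.01 ± 0.37 (adjusted p = 0.1368), but its array of MDST8 with both clusters, at 4.19, was below background. CDT1, the partner of CDC6 in loading, had 8.28 and 9.30 with both clusters, against 8.57 and 9.32 in the controls. It was at 8.72 and 9.81 with miR200c141 and at 9.31 and 9.46 with miR200ba429, and in HUTU-80 at 8.93 and 9.09 with miR200c141, 8.74 with miR200ba429 and 8.99 in the control. Its levels with both clusters were near those of the controls, with a fitted change of −0.26 ± 0.21. ORC6, the smallest subunit, was the only member with a positive fitted change, 0.16, and its 95% interval ran from −0.10 to 0.42.

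Among the proteins that turn the ring into an active helicase, MCM10, which joins the ring at activation, stood at 6.90 in MDST8 and 8.52 in NCI-H716 with both clusters. It was at 7.60 and 9.27 with miR200c141, 8.74 and 8.88 with miR200ba429, and 7.99 and 9.30 in the controls. The arrays with both clusters were the lowest of their lines, and the fitted change was −0.94 ± 0.29 (limma adjusted p = 0.0871). A further probe set of MCM10 changed more, by −2.07 in MDST8 and −1.47 in NCI-H716 with both clusters against control. Another gave −0.78 and −0.99, where the one used gave −1.09 and −0.78. CDC45 had −0.76 ± 0.25 (adjusted p = 0.0999). GINS1, a subunit of the GINS complex, had 10.17 and 10.76 with both clusters, against 10.41 and 11.28 with miR200c141, 10.54 and 11.01 with miR200ba429, and 10.32 and 11.36 in the controls. In HUTU-80 it had 10.71 and 10.76 with miR200c141, 10.40 with miR200ba429 and 10.66 in the control. Both clusters gave the lowest level of the line, by a wider margin from the control in NCI-H716, and the fitted change was −0.39 ± 0.12 (adjusted p = 0.0905). GINS4 stood at 6.49 with both clusters in MDST8, against 7.97 in the control, while in NCI-H716 it was below background on all 4 arrays.

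None of the 7 polymerase and primase genes passed, and all 7 had negative fitted changes, with a median of −0.62. POLD1, the catalytic subunit of polymerase delta, which extends the lagging strand, had 6.75 in MDST8 and 6.42 in NCI-H716 with both clusters, against 7.20 and 7.43 in the controls. Its fitted change was −0.75 ± 0.20 (limma adjusted p = 0.0542). PRIM1, the catalytic subunit of primase, had 8.19 and 8.47 with both clusters, 8.38 and 8.66 with miR200c141, 9.25 and 8.84 with miR200ba429, and 9.03 and 8.94 in the controls. In HUTU-80 it had 8.98 and 9.07 with miR200c141, 8.57 with miR200ba429 and 9.03 in the control. The order of the groups was thus the same in MDST8 and NCI-H716 except for the place of miR200ba429, and the fitted change was −0.66 ± 0.23 (adjusted p = 0.1139). PRIM2, its partner, had the smallest change of the group, −0.20 ± 0.22.

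None of the 6 genes of the clamp and its loader passed. PCNA, the ring that tethers polymerases to DNA, stood at 11.92 in MDST8 and 11.24 in NCI-H716 with both clusters, against 11.97 and 11.27 in the controls. It was at 11.86 and 11.43 with miR200c141 and 12.16 and 11.13 with miR200ba429, and in HUTU-80 at 11.58 and 11.67 with miR200c141, 11.63 with miR200ba429 and 11.62 in the control. Its values with constructs lay on either side of the controls. The fitted change was −0.04 ± 0.10 with a 95% interval from −0.27 to 0.19, an interval that does not hold a change as large as the −0.59 of MCM7. RFC4, a subunit of the loader, had 9.17 and 9.76 with both clusters, against 9.65 and 10.30 in the controls, and a fitted change of −0.52 ± 0.14 (limma adjusted p = 0.0527). The other RFC subunits lay between −0.63 for RFC5 and −0.38 for RFC2.

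Single-strand binding, flap removal and nucleotide supply had the role medians nearest 0, at −0.28, −0.35 and −0.31. RPA3, the small subunit of the RPA complex that coats single strands, had 10.79 and 11.01 with both clusters in MDST8 and NCI-H716, against 10.72 and 11.07 in the controls (−0.05, 95% interval from −0.30 to 0.20). RPA1, the large subunit, had 10.36 and 10.83 with both clusters, 10.55 and 11.14 with miR200c141, 10.60 and 11.02 with miR200ba429, and 10.45 and 11.23 in the controls. In HUTU-80 it had 11.42 and 11.54 with miR200c141, 11.41 with miR200ba429 and 11.62 in the control. The level with both clusters was the lowest of the line each time, and the fitted change was −0.28 ± 0.09 (limma adjusted p = 0.1102). FEN1, the flap nuclease, had 10.77 and 9.09 with both clusters, 10.82 and 9.42 with miR200c141, 11.36 and 9.12 with miR200ba429, and 10.98 and 9.26 in the controls. In HUTU-80 it had 10.64 and 10.71 with miR200c141, 10.49 with miR200ba429 and 10.62 in the control. Both clusters again gave the lowest level of the line, by small margins (−0.21 ± 0.15, adjusted p = 0.4789). LIG1, which seals the nicks, had −0.49 ± 0.22. TYMS, which makes thymidylate, had 11.04 and 10.91 with both clusters, 11.09 and 11.14 with miR200c141, 11.54 and 11.11 with miR200ba429, and 11.16 and 11.19 in the controls. In HUTU-80 it had 11.80 and 11.88 with miR200c141, 11.77 with miR200ba429 and 11.87 in the control. Its fitted change was −0.22 ± 0.11 (adjusted p = 0.2744). RRM2, the small subunit of ribonucleotide reductase, had 10.02 and 11.61 with both clusters, against 10.91 and 11.68 in the controls, so that most of its change lay in MDST8.

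Behind the fork, UHRF1, which guides maintenance of DNA methylation, stood at 9.62 in MDST8 and 9.78 in NCI-H716 with both clusters, against 10.44 and 10.14 in the controls. It had 10.32 and 10.07 with miR200c141 and 10.81 and 9.97 with miR200ba429, and in HUTU-80 10.49 and 10.58 with miR200c141, 10.54 with miR200ba429 and 10.60 in the control. HUTU-80 barely varied, while both other lines were lowest with both clusters, and the fitted change was −0.60 ± 0.17 (limma adjusted p = 0.0594). CHAF1A, the large subunit of the chromatin assembly factor, had −0.30 ± 0.15. Of the genes of S phase entry, CCNE2, a cyclin that activates CDK2, had 7.46 and 7.94 with both clusters, against 8.69 and 8.27 in the controls. It had 8.33 and 8.24 with miR200c141 and 9.003 and 7.92 with miR200ba429, and in HUTU-80 7.89 and 8.12 with miR200c141, 8.30 with miR200ba429 and 8.22 in the control. The gap between both clusters and control was wider in MDST8, and the fitted change was −0.77 ± 0.26 (adjusted p = 0.1062). CCNE1, the other cyclin E, had −0.40 ± 0.19 (adjusted p = 0.2558).

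**Figure D4:**
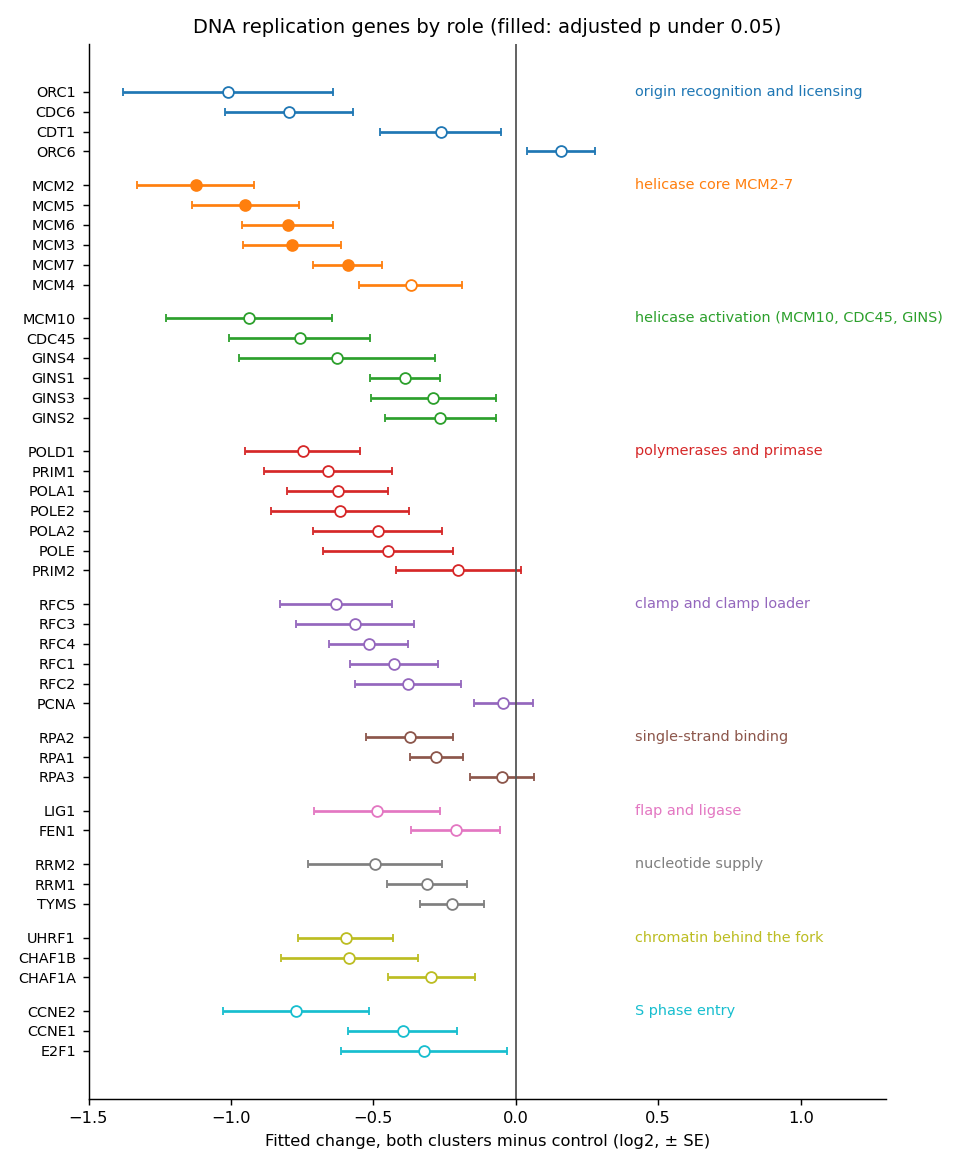
Fitted change (log2) with both clusters against control for the 43 genes, grouped by role; bars are ± 1 SE of the limma fit and filled points passed at an adjusted p under 0.05. The 5 filled points are MCM2, MCM5, MCM6, MCM3 and MCM7, from −1.12 to −0.59, and ORC6 at 0.16 is the one point above 0.

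The second question was whether cells with both clusters differed from cells with a single cluster. That contrast sets the cells with both clusters against the mean of miR200c141 and miR200ba429. The control arrays enter it only through the fit of the lines. Here too the second transduction and the combined clusters cannot be told apart. Among the 43, 1 fell and 0 rose, while 1.39% of all genes fell and 0.273% rose. The member was MCM6, at −0.68 ± 0.14 (SE, limma adjusted p = 0.0461). MCM5 at −0.76 (adjusted p = 0.0517), MCM2 at −0.83 (0.0547), MCM7 at −0.46 (0.0627), MCM3 at −0.65 (0.0644) and UHRF1 at −0.58 (0.0854) did not pass. Of the 43 fitted differences 42 were negative, with a median of −0.44, and 27 had an unadjusted p under 0.05, or 62.8%, against 16.2% of all genes. Left out 1 at a time, 7 of the 12 arrays ended the call of MCM6: the controls of HUTU-80 and NCI-H716, HUTU-80 with miR200ba429, MDST8 and NCI-H716 with miR200c141, and both arrays with both clusters. Its limma adjusted p was 0.0854 without the HUTU-80 control and 0.0606 without the NCI-H716 control, and leaving out any of the 3 lines also ended the call. With the ACTB difference as a covariate MCM6 stood at −0.60 (limma adjusted p = 0.9193).

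Line by line, the single clusters stood at different distances from both together. In MDST8 the level with both clusters was below that with miR200c141 for 37 members (49.1% of all genes), with a median difference of −0.36, and below that with miR200ba429 for 42 (48.6% of all genes). In NCI-H716 it was below miR200c141 for 41 (53.4% of all genes) and below miR200ba429 for 34 (49.6% of all genes). The median difference between both clusters and miR200ba429 was −0.84 in MDST8 and −0.18 in NCI-H716. Without the MDST8 array with miR200ba429, the median against single clusters was −0.29, 40 members were negative and 1 passed, beside 0.703% of all genes.

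The third question was what each cluster did alone. With miR200c141 against control, 0 of 43 members and 0% of all genes passed in limma in either direction, and 0 members but 1302 genes had an unadjusted p under 0.05. The median fitted change of the members was −0.08, with 34 of 43 negative, beside 9737 of all 19774 genes. With miR200ba429, which is read against the same 3 control arrays, again 0 of 43 members and 0% of all genes passed in limma, and 1 member and 1214 genes had an unadjusted p under 0.05. That member was POLD1 at −0.41 (adjusted p = 0.7891). POLD1 was also the 1 member below its control on all 9 arrays with a construct, a pattern of 3.44% of all genes. Within a line, every array with a construct lay below the control for 14 members in HUTU-80 (26.4% of all genes), 3 in MDST8 (24.3%) and 25 in NCI-H716 (29.7%).

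The miR200ba429 arrays differed in direction between lines. In HUTU-80, 35 members were lower than in the control (48.9% of all genes), with a median change of −0.25. In NCI-H716 39 were lower (52.6% of all genes), with a median of −0.22. On the library labelled MDST8 with miR200ba429, 40 of 43 were higher (49.1% of all genes), with a median of 0.29. These 40 had their highest value of the line on that array, against 23.5% of all genes. For 32 members the change was upward in MDST8 and downward in both other lines, against 13.3% of all genes. The fitted median over the 3 lines was −0.05 with 25 members negative, beside 10118 of all 19774 genes. Without the MDST8 array the median of the members was −0.24 with 41 negative. This is the array whose ZEB1 and VAMP8 stood apart, so the direction in MDST8 rests on that label.

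GINS3, CDT1 and GINS2 had the largest fitted changes upward with miR200ba429, at 0.26 ± 0.19, 0.21 ± 0.18 and 0.21 ± 0.17 (limma adjusted p = 0.8359, 0.8613 and 0.8523). Without the array labelled MDST8 with miR200ba429 the same genes stood at 0.05 ± 0.19, −0.07 ± 0.13 and −0.04 ± 0.13 (adjusted p = 0.9748, 0.9256 and 0.9603), so the sign of CDT1 and GINS2 turned. GINS3 stood at 7.12 with miR200ba429 against 7.05 in the control in HUTU-80, 7.94 against 7.30 in MDST8, and 7.26 against 7.18 in NCI-H716. CDT1 stood at 8.74 against 8.99 in HUTU-80, 9.31 against 8.57 in MDST8 and 9.46 against 9.32 in NCI-H716. GINS2 stood at 9.71 against 9.58 in HUTU-80, 9.04 against 8.45 in MDST8 and 8.55 against 8.64 in NCI-H716. For each of the 3 genes the gap was widest in MDST8. GINS3 stood at 7.13 in MDST8 and 6.79 in NCI-H716 with both clusters, at 7.06 and 7.37 with miR200c141, and at 7.10 and 7.30 on the HUTU-80 arrays with miR200c141. GINS2 stood at 8.04 and 8.51 with both clusters, at 8.46 and 8.91 with miR200c141, and at 9.92 and 9.91 on the HUTU-80 arrays with miR200c141. With both clusters all 3 genes lay below the control in both lines.

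A term for the array labelled MDST8 with miR200ba429 was added after its values were seen and rests on that 1 array, so it restates them and adds no support. It called 0 of 43 members and 0% of all genes in limma, with 34 members and 1170 genes at an unadjusted p under 0.05. The planned test of whether the changes differ between lines called 0 members and 0.00506% of all genes in limma, and 0 members had an unadjusted p under 0.05. It pooled all constructs of a line against its control, and HUTU-80 had no array with both clusters. It therefore does not address miR200ba429 alone, and it does not show that the lines responded alike.

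The 2 arrays of HUTU-80 with miR200c141 were the one pair of a line with the same construct. Their levels differed by a median of 0.08 in size over the 43 members, and by 0.67 at most, for PRIM2. The median change from control was −0.04 on the array titled 1:3 and 0.04 on that titled 1:5. No group of MDST8 or NCI-H716 has such a pair. Members with further probe sets offered another check: of 41 such probe sets, 24 were above background on at least 1 array, and with both clusters against control 23 of these had the same sign as the one used in each line. The exception was RRM2. In MDST8 its other probe set gave −0.86 and the one used −0.88, and in NCI-H716 they gave 0.43 and −0.07.

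Other genes of the pathway were read from lists by function, which hold 62 measured genes apart from mitosis. With both clusters against control 9 of these fell and 1 rose, with a list median of −0.20, while 3.81% of all genes fell and 2.33% rose. The falls included RBL1, a pocket protein that binds E2F factors, at −1.52 ± 0.24, CDK2, the kinase of S phase, at −1.14 ± 0.18, and its cyclin CCNA2 at −0.87 ± 0.16. They also included DNA2, a nuclease of the lagging strand, at −1.08 ± 0.24, RNASEH2A, which removes RNA primers, at −0.79 ± 0.13, and NASP, a histone chaperone, at −0.995 ± 0.117. TK1, the thymidine kinase, E2F3, an activating E2F factor, and CDK4, a G1 kinase, had −0.78 ± 0.15, −0.70 ± 0.17 and −0.37 ± 0.08. ORC4, a subunit of the origin recognition complex, rose by 0.42 ± 0.11 (limma adjusted p = 0.0427).

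CDK2 stood at 7.52 in MDST8 and 7.32 in NCI-H716 with both clusters, against 8.40 and 8.63 in the controls, and below the other 10 arrays (limma adjusted p = 0.0059). RBL1 stood at 5.15 and 5.50 with both clusters, against 6.79 and 6.85 in the controls, and the value in MDST8 is below background (adjusted p = 0.0072). Against the single clusters 6 of the 62 fell and 0 rose, while 1.39% of all genes fell and 0.273% rose, with CDK2 at −0.98, RBL1 at −1.13 and NASP at −0.69. CDKN1A, which encodes the CDK inhibitor p21, stood at 9.63 in MDST8 and 6.44 in NCI-H716 with both clusters, against 9.21 and 3.74 in the controls, the last of these below background. Its fitted change of 1.47 ± 0.40 did not pass (adjusted p = 0.0578).

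Mitotic genes, which act after replication, gave a comparison within the cycle. All 22 had negative fitted changes with both clusters against control, with a median of −0.47, beside −0.49 for the replication genes. The lines differed in this. The median change of the mitotic genes was −0.55 in MDST8, with 21 lower, and −0.28 in NCI-H716, with 19 lower. For the replication genes it was −0.48 and −0.47. Of the 22, 6 fell, while 3.81% of all genes did: BUB1B, a spindle checkpoint kinase, at −1.04 ± 0.18, PLK1, a mitotic kinase, at −1.02 ± 0.25, KIF11, a spindle motor, at −1.01 ± 0.24, CCNB2, a mitotic cyclin, at −0.82 ± 0.17, BUB1, also of the checkpoint, at −0.63 ± 0.16, and PTTG1, securin, at −0.48 ± 0.13.

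**Figure D5:**
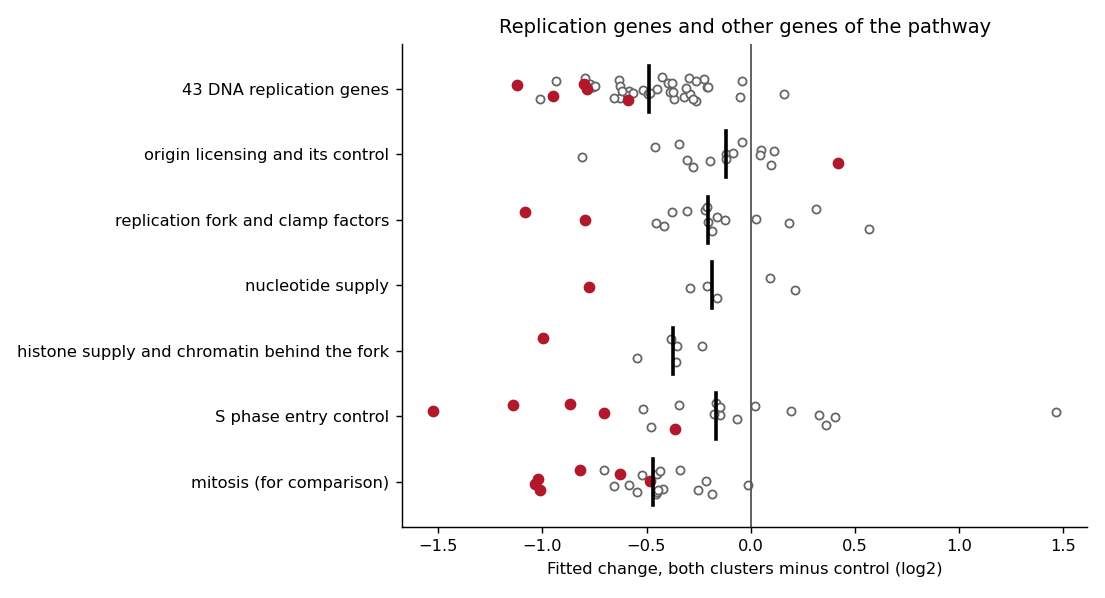
Fitted change (log2) with both clusters against control for the 43 replication genes and for 6 lists of other genes, 1 point per gene, with bars at list medians and filled points at an adjusted p under 0.05. The medians of the replication genes (−0.49) and the mitotic genes (−0.47) lie side by side in this fit over the lines, and the point at 1.47 is CDKN1A. On the NCI-H716 array alone the medians were −0.47 and −0.28.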

How the data were processed

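Total RNA of 12 samples was labelled and hybridised to Affymetrix U133 Plus arrays. The authors deposited RMA values on the log2 scale, 1 per probe set and array, per the submitters' processing notes, and these were not altered. RMA quantile normalizes arrays, so a change shared by all genes would not be seen. The sources used here do not name the software that ran RMA. Of 54715 probe sets, 40914 name a single gene, and each of the 19774 genes was read with its probe set of highest mean. Positions and sequences are from RefSeq.

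Groups came from the sample titles. The fits used limma 3.58.1 in R 4.3.3 (with the package data.table, 1.17.8) with the cell line as a block, eBayes with a trend, 11 samples, 5 residual degrees of freedom and two-sided Benjamini-Hochberg adjustment over all genes at 0.05. The line pairs the samples, since its arrays come from the same cells. The number of arrays limits the precision. Fits were tested on simulated data.

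Values on every array are given for members that passed a test with both clusters, for the 3 of largest fitted increase with miR200ba429, and for the brightest member of each role. The members, the lists of other genes and the rule were chosen with earlier results of these data known. Alternatives covered probe sets, filters, normalization, the model, RNA quality and leaving out arrays or lines.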

Additional observations from a re-analysis of the deposited data

Results flagged for a closer look

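In 3 members every array with a construct moved one way in one line and the opposite way in another, and none of these differences was tested on its own. GINS4 had changes above 0 on all 3 arrays with a construct in NCI-H716 (median 0.10, all below background) and below 0 on all 3 in MDST8 (median −1.05), a gap of 1.15. CDC6 was above its control on the arrays of HUTU-80 (median 0.02) and below it on those of NCI-H716 (median −0.39), a gap of 0.41. RPA3 was above its control on the arrays of MDST8 (median 0.07) and below it on those of HUTU-80 (median −0.05), a gap of 0.12.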

How the results depend on the processing

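With both clusters against control, 5 members passed. With the probe sets of each gene averaged, 5 passed again, beside 3.35% of all genes. They were not the same 5, since MCM6 did not pass in that setting (limma adjusted p = 0.0971). The count was 10 with only genes above background on 2 or more arrays, where 13.3% of 11334 genes passed. It was 10 with the HUTU-80 arrays of miR200c141 as separate samples (7.49% of all genes) and 2 without the trend in eBayes (3.43%). It was 0 with only MDST8 and NCI-H716, the same fit as without HUTU-80 (1.83% of all genes). With only the groups compared it was 0 (0.0961%), and with the ACTB difference as a covariate 0 (0%). Without the cell line as a block (no replicate block) it was also 0, beside 0% of all genes. Leaving out an array or a line gave 0 to 13 members. The count was 13 without MDST8 with miR200ba429 (5.81% of all genes) and 3 without the HUTU-80 control (3.21%). Fits left with 1 sample with both clusters are given by the median change of the members. It was −0.40 without MDST8 or without its array with both clusters, −0.53 without NCI-H716 and −0.57 without its array with both clusters. The 5 MCM genes kept their direction in all 24 distinct settings, and MCM2 passed in 18, MCM5 in 17, MCM6 and MCM7 in 15 and MCM3 in 14.

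Against single clusters 1 member passed, MCM6, which passed in 7 of 24 settings. The count was 4 with the filter, where 4.36% of 11334 genes passed, and 5 with separate arrays, where 2.57% of all genes did. It was 0 with probe sets averaged (0.597% of all genes), without the trend (0.496%), with arrays centred on their median (1.56%) and with quantile normalization (1.41%). It was also 0 with only MDST8 and NCI-H716 (0.43%) and with only the groups compared (0.779%). Without the block and with the ACTB covariate it was 0, beside 0% of all genes. Leaving out an array or a line gave 0 to 8 members. For each cluster alone and for the difference between lines, 0 members passed in every setting run; the last could not be fitted without a control array. The number of genes passing with both clusters against control was 1214, with 362 to 1676 when an array or a line was left out and 0 to 1513 under the other alternatives. Against single clusters it was 329, with 85 to 1083 and 0 to 509. The cause of these moves was not tested. With a single array per line and group, members below background, E2F1 above all, give differences limited by background.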
